A study of Oreochromis niloticus with 9 samples.

Results

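The transcripts described here encode the metabolite carriers of mitochondria, the pore proteins of their outer membrane and the machinery that brings proteins into them, in the liver of Nile tilapia of the GIFT strain (genetically improved farmed tilapia). Loci were chosen by name, by keeping each locus whose symbol begins with slc25a, ucp, mpc1, mpc2, vdac, timm or tomm. The rule found 82 of the 37283 loci in the table, with 70 different symbols, and 11 of these symbols had several loci, which are numbered here as copies in the order of their locus identifiers. Of the 82 loci, 53 are slc25a genes and 23 are timm or tomm genes. The name of the group does not hold for all of them. The porins vdac1, vdac2 and vdac3, the tomm proteins and slc25a46 sit in or act at the outer membrane in mammals, slc25a17 is a carrier of peroxisomes, tomm34 is found mostly in the cytosol, and timmdc1 takes part in the assembly of respiratory complex I. In the counts by role below, timmdc1 is grouped by name with the TIM loci and tomm34 with the TOM loci. The gene slc25a46 is grouped there with the carriers of unsettled substrate. The second subunit of the pyruvate carrier (mpc2), ucp3 and timm9 were not matched by name and were not analysed here.

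Mitochondria are closed by an inner membrane that hardly any charged molecule crosses unaided, so each class of metabolite has a carrier, and most carriers belong to the slc25 family and exchange a substrate inside for another outside. Small molecules first pass the outer membrane through the porins. Nearly all mitochondrial proteins, the carriers among them, are made in the cytosol, enter through the TOM channel of the outer membrane, and are then sorted by the TIM complexes, with the small Tim proteins chaperoning carriers through the space between the membranes. In the liver of mammals these proteins serve ATP export, fatty acid and amino acid breakdown, the urea cycle, and the export of citrate for lipid synthesis.

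The 9 libraries come from GIFT that received 3 diets for 8 weeks. The C group had 0% apple peel powder (APP, written APE in the sample labels), the APP_A group had 0.2% and the APP_H group had 0.8%. Each library was made from liver RNA of 5 fish of 1 tank, so n = 3 pools per group, and a p value measures the spread between tank pools, not between fish.

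Values are FPKM, a measure of fragments for the length of the transcript and the size of the library. Levels are thus relative to the rest of their library. The sum of FPKM differed between libraries, from 1226503 in APP_H3 to 2631532 in C1, so differences between libraries also depend on their makeup. No read counts were used here, and the depth behind each value is unknown. The paper reports reads per library. The fewest mapped reads were in APP_A3, and filtering removed the largest shares of raw reads from APP_A3 and APP_H1. Differences between diets are differences of group means of log2(FPKM + 1), which understates the change of loci with low FPKM, and were tested with limma over the 20575 genes that had at least 1 FPKM in at least 3 libraries. A gene was called when its log2 fold change was at least 1 in either direction with an adjusted p under 0.05 (Benjamini-Hochberg over all genes tested). Of the 82 loci, 61 passed this filter on low values. Where 3 values follow a group's name they are those of its replicates 1, 2 and 3.

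The library APP_H3 stood apart from the other 8. Its FPKM summed to 1226503, against 1941494 to 2631532 in the others. The mean log2(FPKM + 1) over the 22 loci of the Hepatocyte marker list that passed the filter was 5.66 in APP_H3, against 8.86 to 9.52 in C, 9.11 to 10.2 in APP_A, and 9.88 and 8.84 in APP_H1 and APP_H2, and 21 of the 22 were below the median of the other libraries. For the Exocrine pancreas list (8 of 8 loci lower) the mean was 6.18 there and 8.12 to 11.7 elsewhere. The Erythroid list (12 of 14 higher) had a mean of 6.12 in APP_H3 and of 3.53 to 4.54 in C, 2.81 to 4.07 in APP_A, and 3.18 and 4.51 in APP_H1 and APP_H2. The Lymphoid list (10 of 10 above the median of the other libraries) had 3.70 in APP_H3 and 1.34 to 3.21 elsewhere, with APP_H2 next at 3.21. Its loci ptprc, cd8a, lck, zap70 and itk were higher in APP_H2 than in APP_H3, while cd79a, ikzf1, ccr7, blk and btk were lower. By name, 23 of 32 Hepatocyte, 13 of 22 Erythroid, 12 of 18 Lymphoid and 8 of 18 Exocrine pancreas symbols were matched. The globin symbols of the Erythroid list were not. No matched gene of these lists was at 0 in all libraries. The Hepatocyte marker apoa1a was listed at 0 in C1, C2, C3, APP_A2, APP_H1 and APP_H2. It had 30624 FPKM in APP_A1, 43942 in APP_A3 and 1895 in APP_H3, which raises the Hepatocyte means of these libraries. It was the 1 locus of that list above the median of the others in APP_H3. In liver pools, fewer cells of a type and less RNA per cell cannot be told apart. The part of these markers in the results below was not tested, and differences that involve APP_H are given with and without that library.

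The 82 loci summed to between 1130.1 FPKM in APP_H3 and 3748 FPKM in APP_H1, which was 0.09% to 0.148% of all FPKM in a library. A single ADP/ATP carrier locus, slc25a5 copy 2 (XLOC_013387, scaffold GL831183.1, bases 3088367 to 3091307), supplied 29.7% to 44.9% of this sum. It had 1229.7, 995 and 754 FPKM in C, 926, 1271 and 875 in APP_A, and 1682, 722 and 417 in APP_H. This carrier hands ATP made in the matrix to the cytosol in exchange for ADP, and its lowest and highest libraries were both in APP_H. The next locus by level was ucp1 (XLOC_021088, scaffold GL831246.1, bases 276130 to 289244), which carries protons back into the matrix in the brown fat of mammals and is known from the liver of carp. It had 709.9, 716 and 261 FPKM in C, 266, 258 and 578 in APP_A, and 655, 418 and 18.9 in APP_H. Levels of ucp1 were at least 257.7 FPKM in 8 libraries and lay far below that in APP_H3. The C group alone spanned 261 to 716 FPKM, nearly the whole range of these 8. Together both loci made up 46.9% to 62.4% of the sum in 8 libraries and 38.6% in APP_H3.

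The phosphate carrier slc25a3b, which brings in the phosphate that ATP synthase needs, ranked next with 230.2, 249.6 and 198 FPKM in C, 183, 235 and 217 in APP_A, and 310.5, 181 and 107 in APP_H. The pyruvate carrier subunit mpc1 (XLOC_007066), which is not an slc25 protein and opens the matrix to the end product of glycolysis, had 191, 217 and 98.7 FPKM in C, 94.4, 161 and 170.0 in APP_A, and 143, 129 and 14.5 in APP_H. The citrate carrier slc25a1b had 129.6, 127 and 95.1 FPKM in C, 87.7, 137 and 153 in APP_A, and 165, 95.0 and 23.1 in APP_H, on a locus that the table merges with pi4kaa, so that its values cannot be given to the carrier alone. For these 3 loci the groups overlapped in each comparison, and APP_H3 was the lowest of the 9 libraries. The pyrimidine nucleotide carrier slc25a33 had 97.5, 125 and 62.3 FPKM in C, 30.2, 130.5 and 76.3 in APP_A, and 51.2, 202 and 13.0 in APP_H. The glycine carrier slc25a38a, which supplies haem synthesis, had 73.8, 40.2 and 24.0 FPKM in C, 9.07, 69.8 and 46.9 in APP_A, and 54.1, 211 and 5.86 in APP_H. The oxoglutarate carrier slc25a11, a member of the malate-aspartate shuttle, had 36.6, 51.8 and 39.9 FPKM in C, 60.4, 95.2 and 75.1 in APP_A, and 56.3, 27.2 and 8.02 in APP_H. The first pair ranged widely among the libraries of 1 diet, with APP_A1 low, APP_H2 highest and APP_H3 lowest, whereas slc25a11 was higher in every APP_A library than in any library of the other groups.

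**Figure D1:**
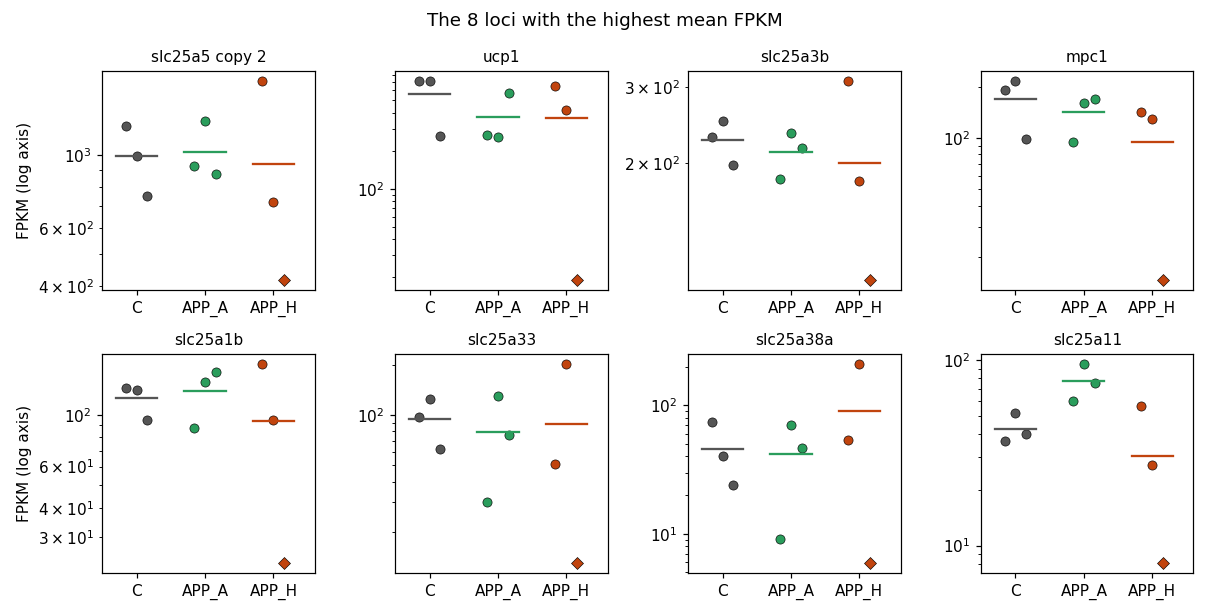
FPKM of the 8 loci with the highest mean, on a log axis that differs between panels, by diet (C, APP_A, APP_H), with 1 point per library, a line at the group mean and a diamond for APP_H3. The diamond is the lowest point of all 8 panels, at 417 FPKM for slc25a5 copy 2 and 18.9 FPKM for ucp1.

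Of the 21 loci that did not pass the filter, 5 were listed at 0 in all 9 libraries. These were slc25a4 (another ADP/ATP carrier), slc25a13 (the aspartate-glutamate carrier citrin), slc25a53 and copies 1 and 3 of slc25a29, a carrier of basic amino acids. An FPKM listed at 0 may be a failed estimate rather than a missing transcript, and the ADP/ATP carrier genes resemble each other, and whether reads of slc25a4 were given to slc25a5 could not be checked. The other 16 had a value above 0 in at least 1 library and at most 2.5 FPKM. Among them the second citrate carrier gene, slc25a1a, reached 0.46, 0.59 and 0.22 FPKM in C, 0.6, 0.34 and 1.15 in APP_A and 0.61, 0.61 and 0.36 in APP_H. The uncoupling protein ucp2 was listed at 0 except for 0.01 FPKM in C3 and APP_H3. Of the uncoupling proteins proper, ucp1 was the one that passed the filter.

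Among the other carboxylate carriers, slc25a21 takes up oxoadipate from lysine and tryptophan breakdown. It had 31.4, 37.3 and 35.6 FPKM in C, 35.9, 104 and 106 in APP_A, and 26.9, 24.1 and 0.86 in APP_H. All 3 APP_H libraries were below all 6 others, and APP_A2 and APP_A3 were the highest. The dicarboxylate carrier slc25a10, which exchanges malate and succinate for phosphate, had 14.0, 8.84 and 6.27 FPKM in C, 7.74, 8.84 and 16.6 in APP_A, and 8.26, 6.22 and 1.42 in APP_H. The glutamate carrier slc25a22 had 4.69, 3.96 and 7.7 FPKM in C, 7.7, 3.51 and 3.89 in APP_A, and 4.39, 7.45 and 14.3 in APP_H. The lowest library for slc25a10 and the highest for slc25a22 was APP_H3 in both cases. The aspartate-glutamate carrier slc25a12 lay between 4.74 and 8.83 FPKM in all 9 libraries, with APP_H3 inside the range of the others.

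Long fatty acids cross the inner membrane as acylcarnitines, through slc25a20. This carrier had 25.2, 33.0 and 19.8 FPKM in C, 16.9, 21.7 and 19.1 in APP_A, and 22.6, 22.5 and 6.34 in APP_H. The mitochondrial ornithine carrier slc25a15b, which serves the urea cycle in mammals, was low, with 1.12, 1.58 and 1.6 FPKM in C, 1.42, 0.9 and 0.57 in APP_A, and 2.05, 1.6 and 1.18 in APP_H. The urea cycle enzyme genes cps1 (at most 0.29 FPKM) and otc (at most 0.71 FPKM) did not pass the filter. The choline carrier slc25a48 had 33.2, 23.1 and 11.8 FPKM in C, 6.85, 7.27 and 13.0 in APP_A, and 39.5, 26.2 and 0.31 in APP_H. The APP_A libraries of slc25a20 and slc25a48 were at the low end without being apart from C, and APP_H3 was the lowest library of both. The second glycine carrier gene, slc25a38b, had 0.53, 0.92 and 0.87 FPKM in C, 1.25, 0.8 and 0.84 in APP_A, and 0.47, 1.26 and 2.39 in APP_H. The erythroid iron carrier slc25a37 (mitoferrin 1), which did not pass the filter, had 0.56, 0.88 and 0.9 FPKM in C, 1.01, 0.23 and 0.56 in APP_A, and 0.58, 0.94 and 2.5 in APP_H. Both were highest in APP_H3, where the Erythroid list was also highest, whereas slc25a38a was lowest there.

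The ATP-Mg/phosphate carriers, which set the adenine nucleotide content of the matrix under the control of calcium, were spread over several loci. One of them, slc25a24 copy 2 (XLOC_032743), had 9.26, 12.9 and 19.9 FPKM in C, 11.7, 9.79 and 4.06 in APP_A, and 6.74, 14.8 and 131 in APP_H. Its relative slc25a25a had 65.8, 76.4 and 31.9 FPKM in C, 12.8, 65.3 and 78.1 in APP_A, and 41.4, 46.1 and 6.25 in APP_H. In APP_H3 the first was the highest of 9 libraries at 12.2 times the median of the others, and the second the lowest at 0.112 times. The related slc25a23a, below the filter, had 0.32, 0.38 and 0.36 FPKM in C, 0.32, 0.31 and 0.24 in APP_A, and 0.41, 0.87 and 1.27 in APP_H. All APP_H values of slc25a23a were above those of both other groups, at levels of at most 1.27 FPKM. How many loci below the filter were separated in this way was not counted, so no share can be set beside it. The smaller ADP/ATP carrier locus, slc25a5 copy 1, had 40.7, 45.5 and 38.5 FPKM in C, 45.4, 69.5 and 41.5 in APP_A, and 95.4, 31.1 and 4.27 in APP_H. It lies 480 bases from slc25a43 on the same scaffold, and APP_H held both its highest and its lowest library.

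The uncoupling relative slc25a30 had 1.88, 1.71 and 2.03 FPKM in C, 0.93, 1.95 and 1.35 in APP_A, and 2.37, 6.52 and 37.6 in APP_H. All 3 APP_H libraries were above all others, and APP_H3 was at 19.6 times the median of the other 8. Among carriers whose substrate is not settled, slc25a43 had 1.39, 1.42 and 1.72 FPKM in C, 3.26, 4.01 and 4.43 in APP_A, and 2.29, 5.87 and 5.66 in APP_H. Every C library was below every library of both APP diets. For slc25a47a, whose mammalian counterpart is made mainly in liver, values were 0.44, 0.26 and 2.6 FPKM in C, 1.72, 0.88 and 0.33 in APP_A, and 0.89, 2.35 and 8.15 in APP_H. The NAD carrier slc25a51b had 1.96, 2.36 and 2.12 FPKM in C, 3.17, 5.44 and 3.85 in APP_A, and 2.0, 1.52 and 5.0 in APP_H. The first was highest in APP_H3, and the second was higher in all APP_A libraries than in all C libraries.

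The porins are the pores through which ATP and metabolites cross the outer membrane. The values of vdac1 were 7.33, 10.7 and 16.0 FPKM in C, 9.81, 5.27 and 7.45 in APP_A, and 9.63, 14.9 and 44.2 in APP_H. Those of vdac2 were 18.6, 16.6 and 19.9 FPKM in C, 15.3, 21.3 and 18.2 in APP_A, and 22.8, 15.8 and 11.1 in APP_H. For vdac3 they were 31.6, 30.1 and 19.6 FPKM in C, 21.8, 28.5 and 22.9 in APP_A, and 33.5, 10.1 and 9.4 in APP_H. In APP_H3 vdac1 was the highest of 9 libraries, at 4.55 times the median of the others, while vdac2 and vdac3 were the lowest of 9.

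Of the outer membrane import proteins, the receptor tomm20 had 28.2, 28.9 and 18.9 FPKM in C, 23.3, 32.9 and 28.1 in APP_A, and 29.4, 19.6 and 20.8 in APP_H. Its relative tomm20a was split over neighbouring loci that lie 2113 bases apart, and reads of 1 gene may be divided between them. Copy 1 of tomm20a had 15.2, 27.9 and 15.6 FPKM in C, 13.0, 39.0 and 24.2 in APP_A, and 16.1, 12.6 and 5.91 in APP_H. Copy 2 had 3.42, 2.53 and 3.42 FPKM in C, 3.32, 3.14 and 2.73 in APP_A, and 3.53, 3.14 and 6.7 in APP_H. The channel protein tomm40 had 10.9, 9.45 and 7.21 FPKM in C, 9.65, 14.2 and 14.4 in APP_A, and 14.4, 6.38 and 5.48 in APP_H. With all 9 libraries the diets overlapped for each of these loci, and the receptor tomm70a, on 2 loci, did not pass the filter.

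In the inner membrane import machinery, timm10 (XLOC_015040, scaffold GL831194.1, bases 2038480 to 2042385) encodes a small Tim protein that escorts carriers to the TIM22 complex. It had 11.5, 14.7 and 16.9 FPKM in C, 17.1, 16.8 and 10.7 in APP_A, and 5.84, 2.94 and 3.03 in APP_H. The APP_H libraries, APP_H3 among them, were all below every C and APP_A library. The channel protein timm17a (XLOC_024125) had 6.79, 7.46 and 6.68 FPKM in C, 6.27, 8.06 and 8.56 in APP_A, and 13.2, 12.0 and 31.2 in APP_H. Its partner timm23a, the pore of the TIM23 complex, had 5.75, 6.52 and 4.3 FPKM in C, 6.55, 17.2 and 14.4 in APP_A, and 13.9, 5.23 and 0.98 in APP_H. All APP_H libraries of timm17a were above all others, while timm23a was lowest in APP_H3 and above all C libraries in APP_A. The receptor subunit timm50, which takes proteins over from the TOM channel, had 5.38, 3.17 and 2.46 FPKM in C, 4.12, 6.55 and 5.6 in APP_A, and 2.53, 2.07 and 2.05 in APP_H. The small Tim protein timm8a had 2.28, 1.73 and 0 FPKM in C, 10.5, 2.78 and 18.5 in APP_A, and 9.74, 7.77 and 1.75 in APP_H. The values of timm8a varied widely within APP_A, and C3 was listed at 0.

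**Figure D2:**
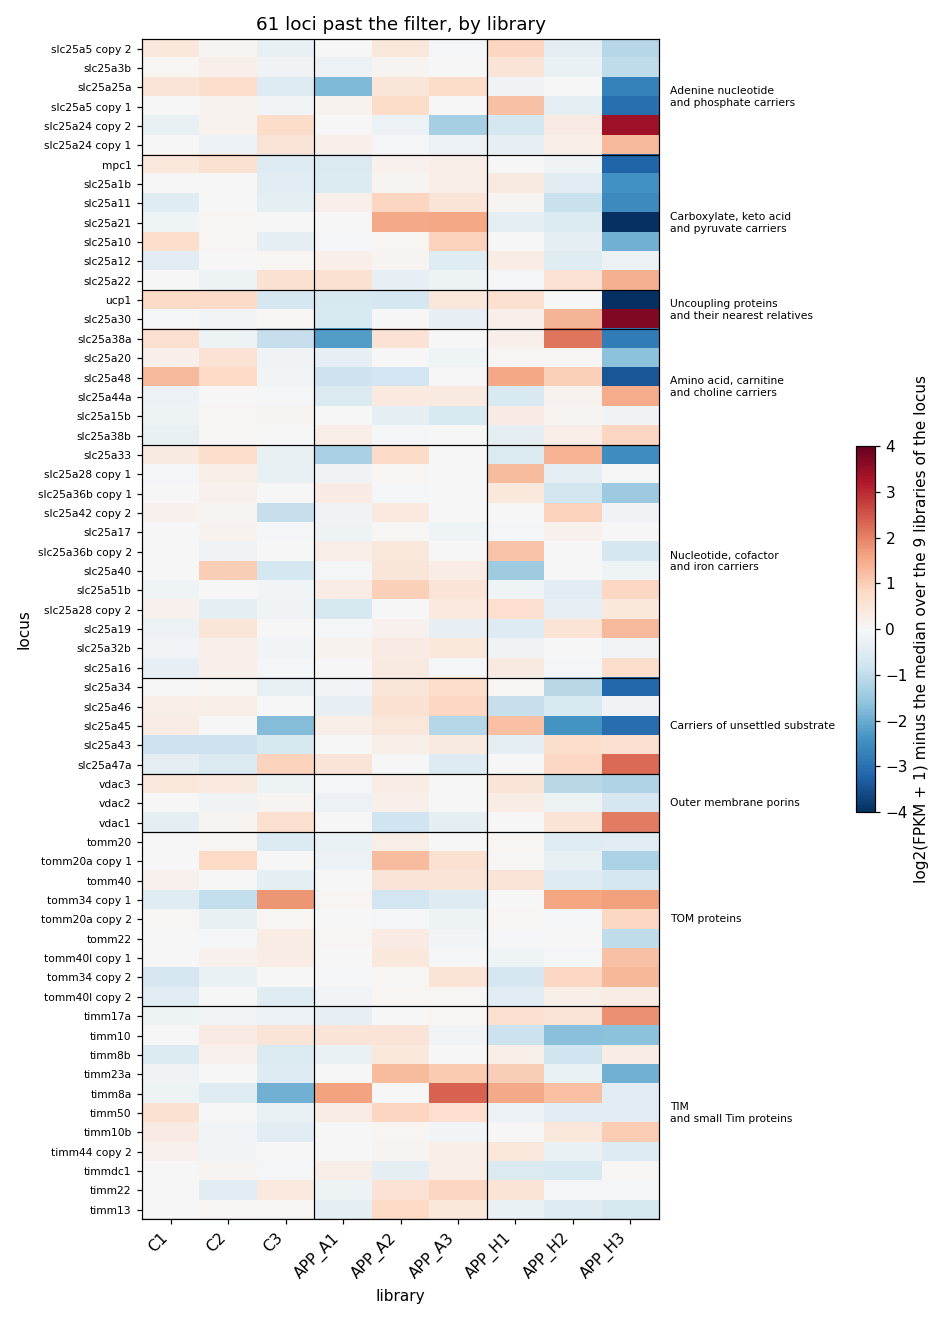
Heat map of the 61 loci that passed the filter (rows, grouped by role) in the 9 libraries (columns). Colour gives log2(FPKM + 1) minus the median of the locus over the libraries, blue for lower and red for higher, with the scale ending at 4 in both directions. The APP_H3 column holds most of the strong colours, with 27 loci at their lowest and 16 at their highest of the 9 libraries.

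In APP_H3, 27 of the 61 loci (44.3%) had their lowest value of the 9 libraries and 16 (26.2%) their highest. Over all genes tested, 25.7% were lowest and 26.3% highest in that library. The library with the next most extremes among the members was APP_H1, with 15 highest (24.6% beside 13.7% of all genes) and 8 lowest (13.1% beside 9.64%). In APP_A2 and APP_A3, 9 loci each were highest (14.8% beside 8.83% and 8.75% of all genes). The median of log2(FPKM + 1) in APP_H3 minus the median of the other 8 libraries was -0.27 over the members and 0 over all genes. On this scale the lowest were ucp1 at 0.038 times the median of the others, slc25a21 at 0.024 times and slc25a48 at 0.0172 times, and the highest were slc25a30 at 19.6 times, slc25a24 copy 2 at 12.2 times and slc25a47a at 9.21 times. By role, the carboxylate, keto acid and pyruvate carriers lay lowest, with a median difference of -2.42 and 5 of 7 loci at their lowest of the 9 libraries. Adenine nucleotide and phosphate carriers had a median of -1.13 (4 of 6 lowest and the others highest), and amino acid, carnitine and choline carriers one of -0.93 (3 of 6 lowest). The nucleotide, cofactor and iron carriers were near 0 at -0.07 with 7 of 12 loci inside the range of the other libraries. For the TOM proteins the median was 0.35, with 4 of 9 loci highest and 3 lowest, and for the TIM and small Tim proteins it was -0.57, with 2 of 11 highest and 4 lowest. The low carboxylate carriers and ucp1 were seen in the same library as the low Hepatocyte list, and the part of the cell mixture in these values was not tested. A single pool cannot give a test of its own difference.

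**Figure D3:**
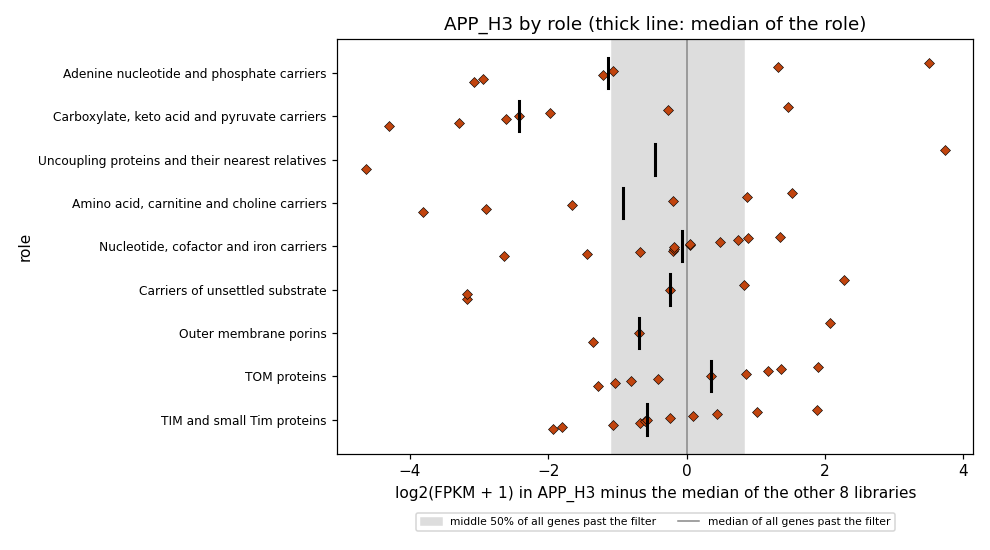
Difference of log2(FPKM + 1) in APP_H3 from the median of the other 8 libraries for the 61 loci that passed the filter, 1 diamond per locus, in a line for each role, with a thick bar at the median of the role. The grey band holds the middle 50% of all genes tested (-1.08 to 0.83), and the carboxylate, keto acid and pyruvate carriers have their median well below it at -2.42, with that of the adenine nucleotide and phosphate carriers just below it at -1.13.

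One diet stood apart from both others at 6 of the 61 loci. All APP_A libraries were above all 6 others for slc25a11 (beside 1.48% of all genes) and below them for 0 loci (1.4%). All APP_H libraries were above the rest for slc25a30 and timm17a (2.94%) and below it for slc25a21 and timm10 (2.96%). All C libraries were below the rest for slc25a43 (0.748%) and above it for 0 loci (1.16%).

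At 0.2% APP, all 11 TIM and small Tim loci and all 5 carriers of unsettled substrate had higher group means than on the control diet, and none of these differences reached the threshold. Limma called 0 of the 61 loci, beside 0.0972% of all genes tested (20 genes). At an unadjusted p under 0.05 there were 2 loci (3.28%), slc25a43 and timm8a, both higher in APP_A, beside 3.4% of all genes (1.48% higher and 1.92% lower). Without APP_A3 there were 0 such loci, beside 2.95% of all genes. Without C3 or APP_A1 slc25a43 alone was left (1.64%), beside 2.87% and 4% of all genes. Without APP_H3, which enters the fit through the shared spread, there were 4 (6.56% beside 5.25%), with slc25a48 and slc25a51b added. All APP_A libraries were above all C libraries for slc25a11, slc25a43, slc25a51b, timm23a and timm8a, which is 5 loci or 8.2% beside 4.69% of all genes, and for 0 loci were they all below, beside 6.34% of all genes.

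The carrier slc25a43 had 1.51 ± 0.18 FPKM in C (mean ± SD, n = 3) and 3.9 ± 0.59 in APP_A, a log2 fold change of 0.96 (SE 0.32, limma adjusted p = 1.0). For timm8a the means were 1.34 ± 1.19 and 10.6 ± 7.88 FPKM, with a log2 fold change of 2.19 (SE 0.79, limma adjusted p = 1.0). Both were higher in 3 of 3 APP_A pools than in any C pool, although the timm8a values of APP_A ranged from 2.78 to 18.5 FPKM. The NAD carrier slc25a51b differed by 0.69 on the log2 scale (SE 0.35, limma adjusted p = 1.0), and timm50 by 0.49 (SE 0.29, limma adjusted p = 1.0). For slc25a11, with 42.8 ± 8.0 FPKM in C and 76.9 ± 17.5 in APP_A, the log2 fold change was 0.82 (SE 0.66, limma adjusted p = 1.0). Its groups did not overlap, but the spread pooled over the 3 diets, which includes APP_H3, was wide beside the difference.

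Group means were higher in APP_A than in C for 40 of the 61 loci (65.6%), against 44.9% of all genes tested, and the median log2 fold change was 0.06 over the members and -0.05 over all genes. Without APP_A2 the count was 31 (50.8% beside 45.9% of all genes) and the median over the members 0.011. Without APP_A1 they were 42 (68.9% beside 44.8%) and 0.16. Quantile normalization shifted the median of all genes by 0.11 and that of the members to 0.18, so that members lay 0.11 above all genes with and without it. All 11 TIM and small Tim loci were higher in APP_A, with a median of 0.25, also under median-ratio scaling and quantile normalization, and the number was 9 to 11 when single libraries were left out (9 without C3, APP_A1 or APP_A2). Their median was 0.53 without APP_A1. Of these 11 loci only timm8a had an unadjusted p under 0.05. The 5 carriers of unsettled substrate were higher too, with a median of 0.33 under the values as deposited and slc25a43 the only one at an unadjusted p under 0.05. Without APP_A2 this median was 0.09, without APP_A1 it was 0.55 and without C2 it was 0.50, and 4 of the 5 were higher when APP_A1, APP_A3 or any 1 of the C libraries was left out. Of the 9 TOM loci 6 were higher (median 0.15), and of the 7 carboxylate, keto acid and pyruvate carriers 5 were (median 0.08). The latter median was 0.315 without APP_A1 and 0.001 without APP_A3, and it was 0.154 without C1, 0.137 without C2 and 0.119 without C3. Other roles went both ways. Of the 12 nucleotide, cofactor and iron carriers 9 were higher (median 0.08). Of the 6 amino acid, carnitine and choline carriers 2 were higher (median -0.36). The 6 adenine nucleotide and phosphate carriers also had 2 higher (median -0.10), and the 2 uncoupling loci had 0 higher (median -0.43). None of the 3 porins was higher as deposited, but 1 was under median-ratio scaling and 2 under quantile normalization. The porin median went from -0.12 to 0.05 under the latter.

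At 0.8% APP against the control diet, timm10 was the member with the lowest p and was lower, and timm17a and slc25a43 were higher. Over the 61 loci the log2 fold changes ran from -1.71 to 1.79, and from -1.55 to 2.225 without APP_H3. None of these differences reached the threshold. The comparison uses the same C libraries as the one above. Limma called 0 of the 61 loci, beside 0.122% of all genes (25 genes), and also 0 without APP_H3, beside 0.267%. An unadjusted p under 0.05 was found for 3 loci (4.92% of the members), 2 higher and 1 lower, beside 7.58% of all genes (3.18% higher and 4.4% lower). Without APP_H3 the count was 5 (8.2%), beside 7.62% of all genes (3 higher beside 3.75% and 2 lower beside 3.87%). Without APP_H1 it was 13 (21.3%), beside 18.4% of all genes. All APP_H libraries were above all C libraries for slc25a30, slc25a43 and timm17a (4.92% of the members beside 5.91% of all genes) and below them for slc25a21, slc25a46, timm10 and timm13 (6.56% beside 7.02%). Leaving out APP_H3 gave 4 loci above (6.56% beside 10.6% of all genes) and 6 below (9.84% beside 11.8%).

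The small Tim gene timm10 had 14.4 ± 2.7 FPKM in C and 3.94 ± 1.65 in APP_H (mean ± SD, n = 3), a log2 fold change of -1.67 (SE 0.34, limma adjusted p = 0.31). Without APP_H3 the log2 fold change was -1.55 (SE 0.36), and the adjusted p lay between 0.109 and 0.63 over the 18 alternatives. For timm10 the difference was therefore about as large without the library that stands apart, with all APP_H pools below all C pools. The channel gene timm17a had 6.98 ± 0.42 FPKM in C and 18.8 ± 10.8 in APP_H, and its log2 fold change was 1.19 (SE 0.39, limma adjusted p = 0.548) and 0.77 without APP_H3. For slc25a43, with 4.61 ± 2.01 FPKM in APP_H, it was 1.09 (SE 0.32, limma adjusted p = 0.487) and 0.92 without APP_H3. The uncoupling relative slc25a30 differed by 1.79 (SE 0.78, limma adjusted p = 0.661) and by 0.81 without APP_H3, a smaller difference with the same order of the pools. For slc25a21 the log2 fold change of -1.71 (SE 1.03, limma adjusted p = 0.688) became -0.43 without APP_H3.

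Over the 61 loci, 29 group means were higher in APP_H than in C (47.5% beside 48.3% of all genes). The median log2 fold change was -0.09, against -0.03 over all genes. Without APP_H3, 35 were higher (57.4% beside 49.8%) and the medians were 0.05 and -0.0005. Without APP_H1 24 were higher (39.3% beside 50.0%), with a median of -0.24 over the members. The sign of 18 of the 61 differences turned when APP_H3 was left out, and 46 of the 61 became smaller in size. The carboxylate, keto acid and pyruvate carriers had 1 of 7 loci higher and a median of -0.83 with all libraries (2 of 7 higher and -0.77 under median-ratio scaling), 3 of 7 higher and a median of -0.11 without APP_H3, and 1 of 7 higher and a median of -1.29 without APP_H1. Among them, mpc1 and slc25a1b had log2 fold changes of -1.28 and -0.69, which became -0.24 and 0.11 without APP_H3. The log2 fold change of ucp1 itself was -1.54 (SE 1.27, limma adjusted p = 0.728) and became 0.04 without that pool.

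**Figure D4:**
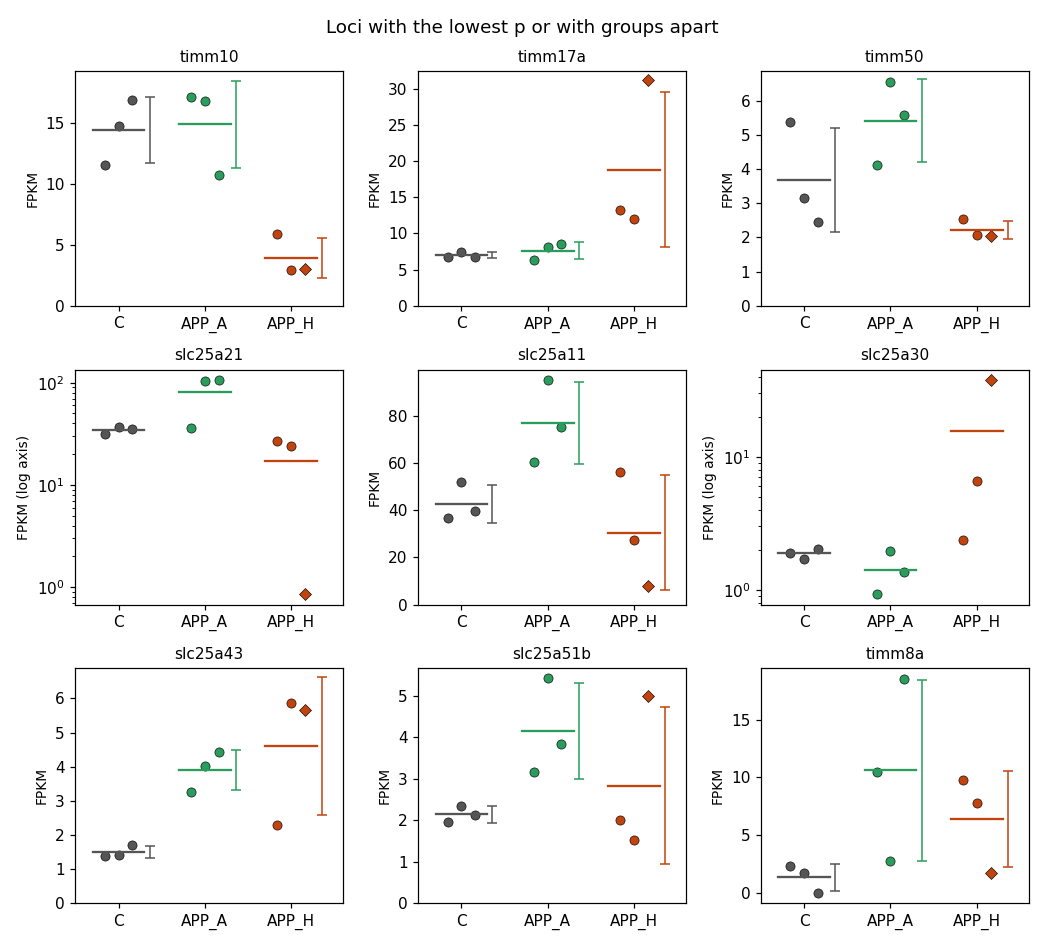
FPKM by diet for 9 loci with the lowest p or with groups apart, with 1 point per library, a diamond for APP_H3, a line at the mean and, on the linear axes, a bar of 1 SD (n = 3), while slc25a21 and slc25a30 have log axes without SD. For timm10 all 3 APP_H pools (2.94 to 5.84 FPKM) lie below the 6 other pools (10.7 to 17.1 FPKM).

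Between the APP diets, the import genes timm10, timm13 and timm50 were lower at 0.8% than at 0.2% with an unadjusted p under 0.05. So were the slc25 genes slc25a11, slc25a21, slc25a34 and slc25a46, while timm17a and slc25a30 were higher. No locus was called by limma, 0 of 61 beside 0.136% of all genes (28 genes), nor was any without APP_H3, beside 0.287%. The 9 loci at an unadjusted p under 0.05 were 14.8% of the 61, beside 10.9% of all genes. Of the 61, 2 were higher, beside 5.71% of all genes, and 7 were lower, beside 5.17%. Without APP_H3 there were also 9 (14.8%), beside 9.8% of all genes (3 higher beside 5.53% and 6 lower beside 4.27%). Of these 9, 6 were among the loci named first. The others were slc25a48, slc25a51b and timmdc1, in place of slc25a11, slc25a34 and timm13. The count was 22 (36.1% of the members) without APP_H1, beside 22.8% of all genes. It was 5 (8.2%) without C1, C2 or APP_H2, beside 9.6%, 9.41% and 8.96%. It was 6 (9.84%) without C3 or APP_A1, beside 9.91% and 10.5%, and 3 (4.92%) without APP_A2 or APP_A3, beside 6.97% and 7.26%. With each library left out in turn, timm10 and timm50 were the loci with an unadjusted p under 0.05 every time. In APP_H against C these were slc25a43, timm10 and timm17a, and in APP_A against C there were 0. The share of all genes that met this rule was not counted, so these loci cannot be set against it. All APP_H libraries were below all APP_A libraries for slc25a11, slc25a21, slc25a32b, timm10 and timm50 (8.2% of the members beside 7.06% of all genes) and above them for slc25a30 and timm17a (3.28% beside 7.45%). Without APP_H3 these counts were 8 below (13.1% beside 11% of all genes) and 5 above (8.2% beside 13.1%).

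For timm10 the log2 fold change was -1.71 (SE 0.34, limma adjusted p = 0.21), from 14.9 ± 3.58 FPKM in APP_A, and it was -1.58 without APP_H3, with adjusted p values of 0.0806 to 0.547 over the 18 alternatives. The TIM23 receptor timm50 had 5.42 ± 1.23 FPKM in APP_A and 2.22 ± 0.27 in APP_H, a log2 fold change of -0.98 (SE 0.29, limma adjusted p = 0.347) that was -0.95 without APP_H3. Both import genes thus differed between the APP diets by about the same amount with and without that pool. For timm17a it was 1.08 (SE 0.39, limma adjusted p = 0.411) and 0.67 without APP_H3. The oxoadipate carrier slc25a21 had 81.9 ± 39.9 FPKM in APP_A and 17.3 ± 14.3 in APP_H, with a log2 fold change of -2.77 (SE 1.03, limma adjusted p = 0.419) that was -1.49 without APP_H3. For slc25a11 it was -1.65 (SE 0.66, limma adjusted p = 0.432) and -0.93, and for slc25a30 it was 2.06 (SE 0.78, limma adjusted p = 0.421) and 1.08. These carriers kept their direction without APP_H3 at a smaller size. For slc25a34, on a locus merged with tmem82, the log2 fold change of -1.75 (SE 0.74, limma adjusted p = 0.456) was -0.87 without APP_H3. That of timm13 was -0.76 and -0.67, and that of slc25a46 was -0.92 and -1.13. For slc25a48, APP_A had 6.85, 7.27 and 13.0 FPKM against 39.5, 26.2 and 0.31 in APP_H, and the log2 fold change went from 0.22 (SE 1.20) to 1.78 (SE 0.50) without APP_H3.

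Over the 61 loci, 25 group means were higher in APP_H than in APP_A (41.0% beside 51.0% of all genes). The median log2 fold change was -0.22 against 0.02 over all genes. Without APP_H3 29 were higher (47.5% beside 53.2%), with medians of -0.02 and 0.05. In size, the log2 fold changes ran from -2.77 to 2.06 with all libraries and from -1.58 to 1.78 without APP_H3. The carboxylate, keto acid and pyruvate carriers had 1 of 7 loci higher and a median of -1.06, which became 2 of 7 and -0.04 (-1.46 without APP_H1). The TIM and small Tim genes had 2 of 11 higher and a median of -0.42, also 2 of 11 under both scalings, 3 of 11 and -0.33 without APP_H3, and 2 of 11 and -0.16 without APP_A3. Of these 11, 3 had an unadjusted p under 0.05 and were lower (timm10, timm13 and timm50) and 1 was higher (timm17a). Without APP_H3 timmdc1 took the place of timm13 among the lower ones. Of the 9 TOM loci 5 were higher with all libraries and 2 without APP_H3, and none had an unadjusted p under 0.05 in either fit.

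**Figure D5:**
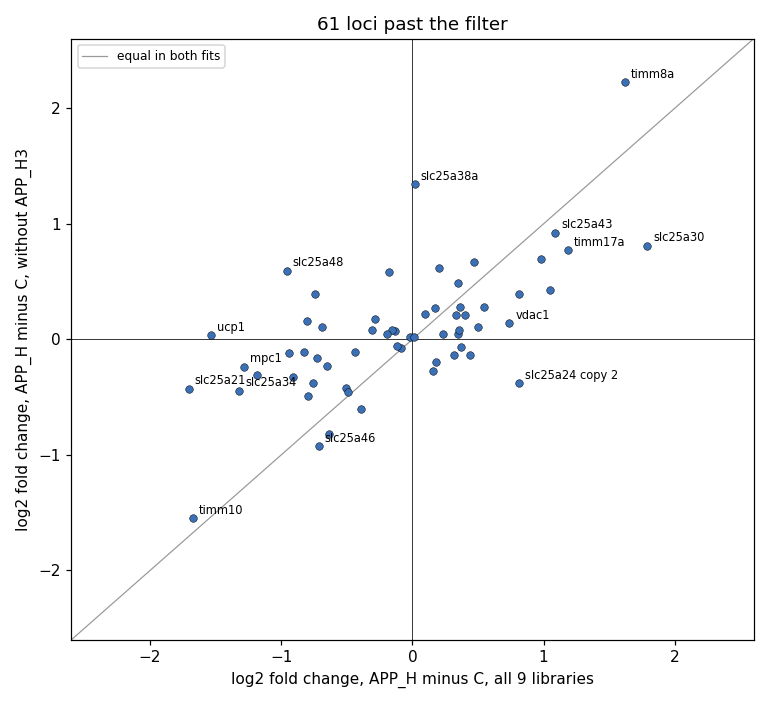
Log2 fold change of APP_H minus C with all 9 libraries (horizontal) against the same without APP_H3 (vertical) for the 61 loci that passed the filter, with a diagonal where both are equal. Points near the diagonal, such as timm10 (-1.67 and -1.55), differed little between the fits, whereas ucp1 (-1.54 and 0.04) and slc25a21 (-1.71 and -0.43) lie nearer to 0 without APP_H3.

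Genes that work with these proteins were taken as 3 lists and were called in 0 cases in each comparison, with and without APP_H3. Over all genes tested, 0.0972% to 0.136% were called with all libraries, and 0.267% and 0.287% in the APP_H comparisons without APP_H3. Calls in 0 cases are thus near the share of all genes. Of 27 further genes of protein import and inner membrane assembly that passed the filter, 5 had higher means in APP_H than in C. Their median log2 fold change was -0.32 over the 27 (8 higher and -0.15 without APP_H3). Over all genes, 48.3% had higher means in APP_H than in C, and 49.8% without APP_H3. The 1 gene of this list with an unadjusted p under 0.05 (3.7% beside 7.58% of all genes) was hspd1. This matrix chaperonin, which folds imported proteins, had 10.4, 9.31 and 6.45 FPKM in C, 6.33, 13.0 and 8.94 in APP_A, and 4.55, 4.18 and 1.91 in APP_H, a log2 fold change of -1.13 (SE 0.38, limma adjusted p = 0.563) that was -0.84 without APP_H3. All 3 APP_H pools of hspd1 were below all 6 others, as for 2.96% of all genes. Against APP_A, 4 of the 27 were higher, beside 51.0% of all genes (median -0.36). Without APP_H3 5 were higher, beside 53.2% (median -0.17). At an unadjusted p under 0.05, 3 were lower (hspd1, gfer and immp1l) and 1 was higher (samm50l). This is 14.8% of the list beside 10.9% of all genes. In APP_A against C 16 of the 27 were higher (median 0.06), beside 44.9% of all genes. In that comparison 0 had an unadjusted p under 0.05, beside 3.4% of all genes.

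Among 23 loci of other mitochondrial membrane transport, cpt2, cpt1b and abcb8 were lower in APP_H than in C with an unadjusted p under 0.05. In all, 3 loci were lower and 0 were higher at that p. This is 13% of the list beside 7.58% of all genes (4.4% lower). Without APP_H3 there were 2, both lower, which is 8.7% of the list beside 7.62% of all genes (3.87% lower). The locus that dropped out was cpt1b, whose log2 fold change went from -0.79 to -0.62, beside -0.88 and -0.81 for abcb8. Carnitine palmitoyltransferase 2 (cpt2), which receives the acylcarnitine that slc25a20 brings in, had 4.87, 4.66 and 4.29 FPKM in C, 3.31, 5.43 and 5.65 in APP_A, and 1.96, 1.65 and 1.05 in APP_H. Its log2 fold change was -1.15 against C (SE 0.26, limma adjusted p = 0.385) and -1.17 against APP_A (SE 0.26, limma adjusted p = 0.241), and -1 and -1.02 without APP_H3. The APP_H pools of cpt2 were all below all pools of both other groups, as for 2.96% of all genes. The carrier slc25a20 itself differed from C by -0.73 with APP_H3 and by -0.17 without it. The gene cpt1b was low, with at most 3.26 FPKM. Its paralog cpt1aa had 29.9, 40.6 and 27.5 FPKM in C, 22.6, 14.7 and 21.4 in APP_A, and 15.05, 34.0 and 18.3 in APP_H. The APP_H values of cpt1aa overlapped those of C and APP_A. Of the 24 genes of metabolic partners of the carriers and of biogenesis, 9 had higher means in APP_H than the control group (median -0.20, 13 and 0.04 without APP_H3). The share over all genes was 48.3%, and 49.8% without APP_H3. Against APP_A, 6 were higher (median -0.46, 12 and 0.01 without APP_H3), beside 51.0% of all genes and 53.2% without APP_H3. The malate dehydrogenase gene mdh1ab, whose product works in the malate-aspartate shuttle beside slc25a11, had 9.97, 9.11 and 6.61 FPKM in C, 11.3, 12.5 and 15.2 in APP_A, and 8.44, 2.62 and 3.95 in APP_H. It differed between the APP diets by -1.33 (SE 0.39, limma adjusted p = 0.342) and by -1.25 without APP_H3. The paralog mdh1aa was far higher, with 980, 824 and 532 FPKM in C, 599, 550 and 880 in APP_A, and 1079, 581 and 85.85 in APP_H. Its APP_H values overlapped those of both other groups. Of the 24 genes, 2 had an unadjusted p under 0.05 between the APP diets, both lower in APP_H (8.33% beside 10.9% of all genes). Against C there were 0, beside 7.58% of all genes.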

How the data were processed

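Liver RNA of 9 pools was sequenced, and the authors deposited an FPKM value for each locus and library. Per the paper's methods, low-quality reads were removed by the authors, TopHat 2 was used for alignment and Cufflinks for FPKM. The submitters' processing notes name Bowtie 0.12.2, HISAT2 2.0 and StringTie 1.3.0 and a mouse build, which differ from these, and the tilapia build is not given in the sources used here. Positions are those of the table's scaffolds. With shared reads, values of similar genes and of merged loci (slc25a1b with pi4kaa, slc25a34 with tmem82, slc25a24 copy 1 with prkab2) are uncertain, and whether strand was used is not given in the sources used here. Symbols were compared with those of a RefSeq annotation, and 53 of 70 were found there.

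The titles gave each library its group. The deposited FPKM were turned into log2(FPKM + 1), for the 20575 genes that reached 1 FPKM in at least 3 libraries. All 9 libraries entered a limma 3.58.1 fit (R 4.3.3) with 1 mean per group and an intensity trend, since FPKM values are no counts and the authors' Cuffdiff test needs the reads, with Benjamini-Hochberg adjustment over all genes. The thresholds are those of the paper. Members, roles, marker lists and the lists of related genes were chosen with earlier results of these data known. Values in every library are given for the 8 members with the highest mean FPKM, the 4 with the lowest p in each comparison, the 3 highest and 3 lowest in APP_H3 relative to the other libraries, those with 1 group apart from both others, and textbook liver and erythroid carriers. Others named were chosen after their values were seen. Alternatives were pseudocounts of 0.1 and 0.01, no filter, a filter at 5 FPKM, median-ratio scaling, quantile normalization, a prior without trend, fits of the 2 groups compared, a block for the replicate number, and each library left out. Python 3.11.15 with matplotlib 3.10.9 drew the figures. No counting error can be given because depth per locus is unknown.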

Additional observations from a re-analysis of the deposited data

How the results depend on the processing

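The number of members called was 0 in each comparison under all 18 alternatives, and no member had an adjusted p under 0.05 in any of them (limma, Benjamini-Hochberg). The number of members at an unadjusted p under 0.05 did move, and so did the number over all genes tested. For APP_A minus C it was 2 of 61 members, beside 700 of 20575 genes. It was 1 with a pseudocount of 0.01 (649 genes), and 1 of 39 with a filter at 5 FPKM (345 of 11072 genes). When the third group was left out of the fit it was 6 (1190 genes). With single libraries left out it was 0 to 4, or 0% to 6.56%, beside 2.87% to 5.25% of all genes. For APP_H minus C it was 3, beside 1559 genes. With single libraries left out it was 3 to 13, or 4.92% to 21.3%, beside 5.16% to 18.4% of all genes. For APP_H minus APP_A it was 9, beside 2238 genes, and 3 when the third group was left out, beside 1534 genes. With single libraries left out it was 3 to 22, or 4.92% to 36.1%, beside 6.97% to 22.8% of all genes. The median log2 fold change over members for APP_H minus C was -0.31 with a filter at 5 FPKM, which left 39 members, and that for APP_H minus APP_A ranged from -0.38 to -0.018 with single libraries left out. The causes of these moves were not tested. Of the 24 fold changes of members given above, 3 changed sign. With single libraries left out, that of ucp1 in APP_H against C (-1.54) ranged from -2.49 without APP_H1 to 0.035 without APP_H3, and that of slc25a1b (-0.69) from -1.28 to 0.11 without the same libraries. For slc25a48 between the APP diets (0.22) it was -0.22 and -0.32 with pseudocounts of 0.1 and 0.01, and -0.70 without APP_H1, -0.41 without APP_H2 and 1.78 without APP_H3. Of all 99 fold changes of the 33 named members past the filter, 43 changed sign in at least 1 alternative. Over all genes, the 20, 25 and 28 genes called in the 3 comparisons became 7, 8 and 3 with the block and 55 and 59 in the APP_H comparisons without APP_H3.

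After removing the group means, the correlations of libraries with the same replicate number lay between -0.07 and 0.126. Those of libraries with different numbers lay between -0.137 and 0.092. With 3 libraries per group these values cannot show whether the replicate numbers pair the libraries. With the replicate block, an unadjusted p under 0.05 was found for 2 members in APP_A against C, 4 in APP_H against C and 6 between the APP diets, and 0 members were called. Over all 20575 genes the counts at that p were 721, 1497 and 2081. Depth per locus is unknown, so low values such as those of timm13, slc25a43 and slc25a51b carry a counting error that cannot be given.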

Other observations

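Ratios between related members within a library do not depend on the scaling of that library. The pairs given here were chosen after their values were seen, and the ratios are descriptions with no test. The ADP/ATP carrier slc25a5 copy 2 and the phosphate carrier slc25a3b, which work together in ATP supply, had a ratio of 3.81 to 5.42 in the 8 other libraries and of 3.91 in APP_H3. In contrast, slc25a5 copy 2 stood to copy 1 at 17.6 to 30.2 in the 8 libraries and at 97.7 in APP_H3. The porin ratio vdac1 to vdac2 was 0.248 to 0.947 in the 8 libraries and 3.97 in APP_H3, and slc25a24 copy 2 to slc25a25a was 0.052 to 0.914 and 21. The ratio of timm17a to timm23a, whose products form the pore of 1 complex, was 0.468 to 2.3 and 31.9. The glycine carrier copies slc25a38a and slc25a38b stood at 7.26 to 167 in the 8 libraries and at 2.45 in APP_H3.

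The small Tim genes timm10 and timm8b gave a ratio that set the APP_H pools apart from the rest, with 0.478, 0.547 and 0.239 in the APP_H replicates and 1.06 to 2.62 in the 6 pools of C and APP_A. The values of timm8b overlapped between the diets, from 5.37 to 13.9 FPKM over all libraries. The timm10 part of this ratio is the difference already described and gives no independent support for it.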
